A study of Arabidopsis thaliana with 33 samples.

Results

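In rosettes of the Arabidopsis accession Col-0, high light (HL) and low light (LL) were compared at 1, 3.5 and 25 hr after an irradiance increase. Of the 27826 measured loci, 80 were placed at a lower level in HL than in LL at 3.5 hr. At 1 and 25 hr their HL and LL levels were placed close together. The placing, by the smallest change, is set out below, and the study's lists give 2 of the 80 as rises. A locus was taken when its HL minus LL change lay between -1.5 and -0.8 on the log2 scale at 3.5 hr, within 0.3 of 0 at both other time-points, and when all 3 HL arrays lay below all 3 LL arrays at 3.5 hr, which was so for 17.6% of all loci. The genes were thus chosen by their Col-0 values in HL and LL at 1, 3.5 and 25 hr, so these are given below as a description and not tested. Of the 80 loci, 79 code for a protein, 1 (At4g38552) is a long non-coding RNA, and 39 carry a gene symbol. The mirror rule, with the sign turned, held for 67 loci, and 241 further loci had the same fall at 3.5 hr but lay beyond the band at 1 or 25 hr.

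The files hold only the digits of each value without its decimal separator, so a change beyond 3.16-fold (1.66 on the log2 scale) cannot be told from a smaller one of the opposite sign. Each change was given the smallest size that its digits allow. The study's gene lists name the 3.5 hr change of 24 of the 80 genes, as a fall for 22 of them and as a rise for 2, BT1 and BBX31. With the listed power of 10 the digits give 1.86 for BT1 and 1.95 for BBX31, so these 2 genes went against the description "down at 3.5 hr" and 22 carry it in the lists too. For the 56 unlisted genes the direction rests on the smallest change alone.

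Plants were grown at 100 μmol m-2 s-1 (LL), and the HL groups received 550 μmol m-2 s-1 from the start of the light period on day 25 after sowing. Col-0 was sampled in HL and LL at 1 and 3.5 hr on that day and at 25 hr on day 26, and in LL at -23 hr, on day 24. The natural accessions Ga-0 and Ts-1 were sampled in HL and LL at 1 hr only, so a fall at 3.5 hr was not measured in them. Each of the 11 groups had 3 arrays, each from a pool of 3 whole rosettes, and all groups shared the other growth chamber settings. The paper states that the higher irradiance also warmed the plants, so light and warming cannot be told apart in the HL groups.

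Light acts on rosette growth through photoreceptors and through the sugars that photosynthesis makes. PIF transcription factors promote elongation, lose activity when phytochrome is activated, and pass much of their effect through auxin, whose response is held back by the Aux/IAA repressors. Xyloglucan endotransglucosylases (XTH) then cut and rejoin wall polymers, while kelch-repeat F-box proteins, dark-inducible genes and autophagy genes are better known from sugar starvation. Many such genes also follow a daily rhythm, so an HL level at 3.5 hr has to be read beside the LL level at the same hour.

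After centring each locus on its mean, the median of an array ranged from -0.044 to 0.035 (log2), and the number of arrays limits the precision (median residual SD 0.11 on the log2 scale). Powers of 10 being unknown, levels of different genes cannot be compared, and the rosette label could not be checked by marker level. Of 20 loci matched by symbol or synonym to markers of rosette cell types, KAT1 of guard cells was higher in HL at 3.5 hr (0.98), while MYB60 of guard cells (-0.57) and PDF1 of the epidermis (-0.71) were lower. Their part in the results below was not tested, and in whole rosettes fewer cells of a type and less RNA per cell cannot be told apart.

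The median HL minus LL change of the 80 genes at 3.5 hr was -0.94 on the log2 scale, a ratio of 0.522, with a range from -1.47 to -0.80. At 1 hr the median was -0.09 and at 25 hr -0.12, inside the band that the rule set, which leaves no room for a 1.4-fold call at either time. In the limma fit 79 of the 80 passed an adjusted p below 0.05 and a 1.4-fold limit downwards at 3.5 hr, where 3.77% of all loci did, a count that the rule fixes. The exception was BHLH100, with an adjusted p of 0.062.

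**Figure D1:**
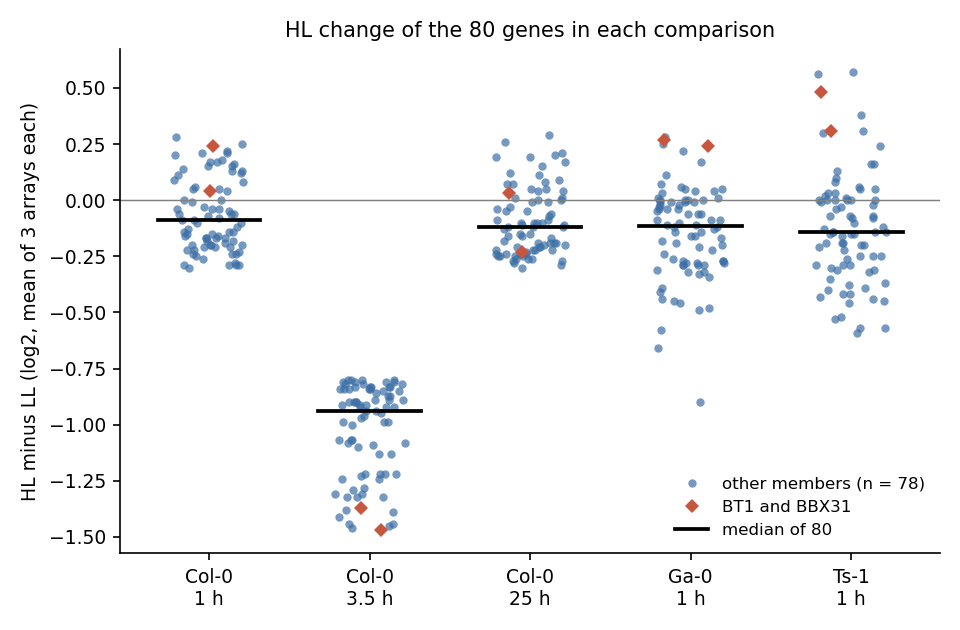
HL minus LL change (log2, difference between means of 3 arrays) of the 80 genes in Col-0 at 1, 3.5 and 25 hr and in Ga-0 and Ts-1 at 1 hr. Points are genes, diamonds are BT1 and BBX31, which the lists give as rises, and bars are medians, at -0.94 for Col-0 at 3.5 hr and between -0.14 and -0.09 elsewhere.

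Among the light and hormone regulators, IAA29, an auxin-responsive Aux/IAA repressor, had the second largest difference. Its LL arrays at 3.5 hr read 1.51, 1.48 and 1.37 relative to the mean of LL at 1 hr, a zero used for all array values here, and its HL arrays -0.11, -0.03 and 0.10. By the smallest change all HL arrays thus lay near the 1 hr level and all LL arrays far above it, and the change was -1.46 ± 0.08 (SE). The same digits also allow an LL mean of -1.87, and IAA29 is not in the study's lists, so its direction is not settled. IAA14, a repressor of the same family known from lateral root formation, read 0.34, 0.24 and 0.27 in LL and -0.58, -0.67 and -0.70 in HL. Here the LL arrays lay slightly above and the HL arrays clearly below the earlier level (-0.94 ± 0.12).

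PIF4 was the only member low in both lights at 3.5 hr by more than a whole log2 unit. Its LL arrays read -1.62, -1.60 and -1.67 and its HL arrays -2.98, -2.92 and -2.97, against 0.21, -0.13 and -0.08 in LL at 1 hr. The HL minus LL change was -1.32 ± 0.10. The LL value stands beside the limit of what can be placed, where a rise of 1.69 has the same digits, and with HL placed closest to LL at 1 hr the HL minus LL change becomes 2.0, so the direction of PIF4 is not settled. BBX31, a B-box protein of light signalling, read 0.76, 0.97 and 0.46 in LL and -0.62, -0.48 and -0.83 in HL by the smallest change. BT1, a BTB and TAZ domain scaffold protein, read 1.38, 0.84 and 1.25 in LL and -0.32, -0.33 and -0.28 in HL. Arrays without overlap between the lights are required by the rule, and the lists turn both differences into rises.

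KMD1 (At1g80440), a kelch-repeat F-box protein that directs cytokinin response regulators to degradation, followed the pattern of IAA29. Its LL arrays read 1.19, 1.26 and 1.39 and its HL arrays -0.18, -0.19 and -0.10, a change of -1.44 ± 0.10. NF-YC1, a subunit of the CCAAT-box binding factor NF-Y, differed from both in that its LL mean stayed within 0.3 of 1 hr (-0.07, -0.15, -0.06) and its HL level dropped (-1.26, -1.5, -1.67). Its change was -1.39 ± 0.10. ORA59, an ERF transcription factor of jasmonate and ethylene defence responses, read 1.64, 0.95 and 1.03 in LL and -0.26, -0.06 and 0.00 in HL, with a change of -1.31 ± 0.21 that became -1.02 without replicate 1. TRP1, a telomeric repeat binding protein, had LL arrays at 1.11, 1.14 and 0.94 and HL arrays at 0.18, 0.21 and 0.13, as placed again with the difference on the LL side.

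BHLH100, a bHLH factor induced under iron deficiency, met the rule through single arrays. In LL it read -0.03, 1.05 and 0.02, and in HL -1.61, -0.06 and -0.07, so that 4 of the 6 arrays lay together near 0. Its change of -0.92 ± 0.35 was -0.60 without replicate 1 and -1.34 without replicate 3, where limma called it.

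**Figure D2:**
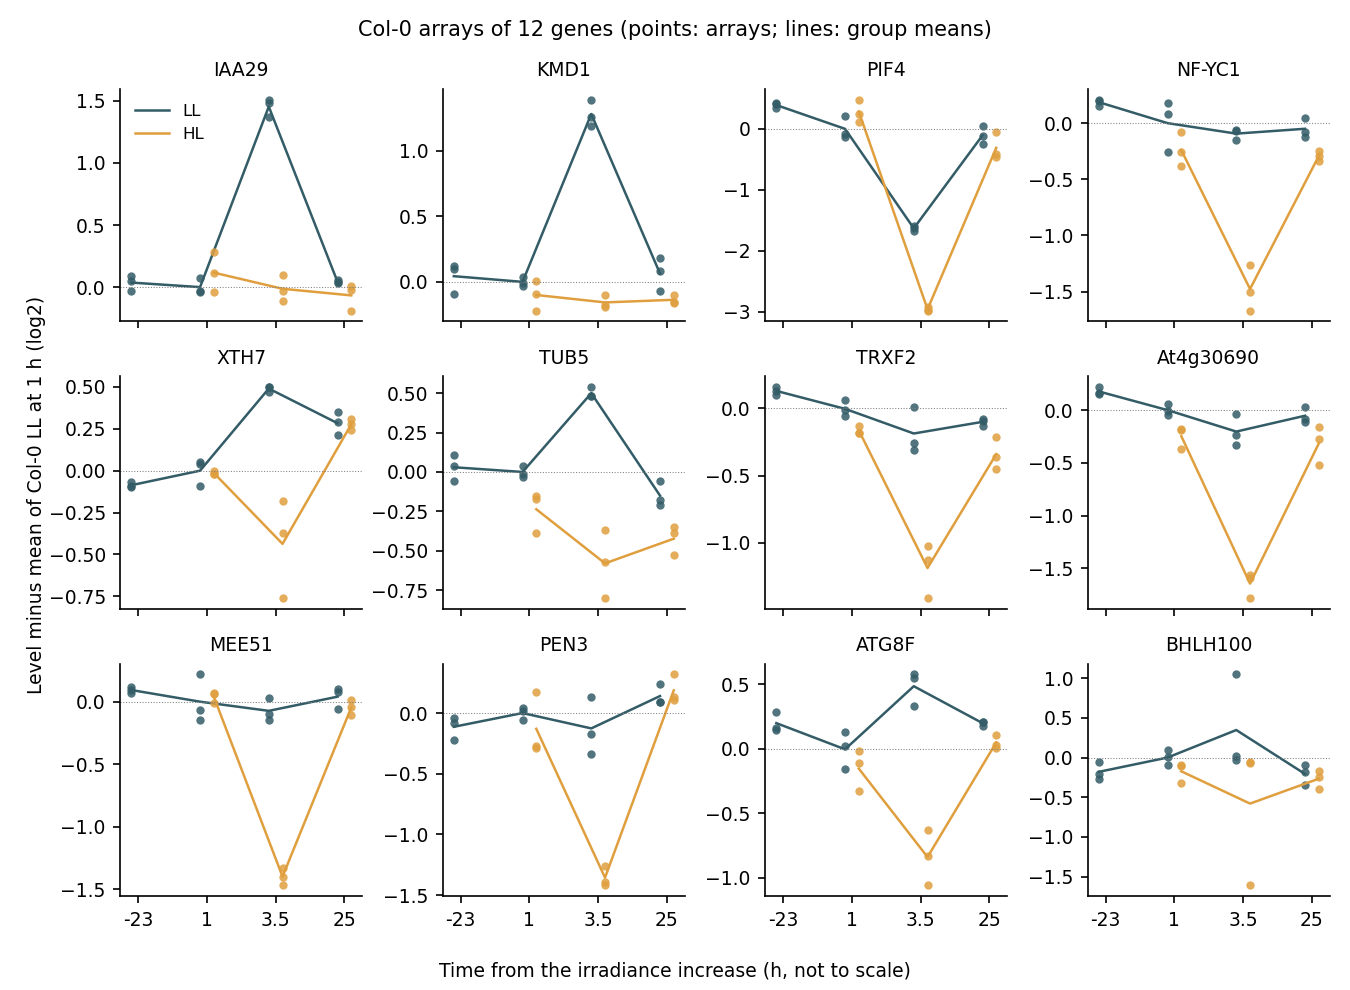
Levels of 12 genes in each Col-0 array (log2, minus the mean of LL at 1 hr) at -23, 1, 3.5 and 25 hr, with points for arrays and lines through group means. The HL and LL arrays separate at 3.5 hr by the rule. As placed by the smallest change, they do so through a high LL level for IAA29 (mean 1.45) and KMD1 (1.28) and a low HL level for NF-YC1 (-1.48) and MEE51 (-1.40).

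Of the genes acting in the cell wall, XTH7 had LL arrays at 0.50, 0.47 and 0.50 and HL arrays at -0.76, -0.37 and -0.18. The HL arrays scattered more than the LL arrays and, as the rule requires, lay below all of them (-0.92 ± 0.10). XTH11 read 0.56, 0.52 and 0.68 in LL and -0.16, -0.34 and -0.29 in HL (-0.85 ± 0.10). PGIP2, an inhibitor of fungal polygalacturonases, read 2.25, 0.88 and 1.15 in LL and 0.07, 0.26 and 0.22 in HL. Its LL replicate 1 stood apart, and the change of -1.24 ± 0.19 was -0.77 without replicate 1. ASD1, an arabinofuranosidase, stayed within 0.3 in LL (-0.21, -0.14, 0.03) and was low in HL (-0.99, -1.04, -0.98), with little scatter in either light. WAKL6, a wall-associated kinase-like protein, read 0.69, 0.60 and 0.78 in LL against -0.34, -0.38 and -0.42 in HL. TUB5, a beta-tubulin, read 0.54, 0.48 and 0.48 in LL against -0.80, -0.57 and -0.37 in HL, so both lay on either side of their earlier level.

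Several genes have products that act in or on plastids. TRXF2, the thioredoxin that activates Calvin cycle enzymes in the light, read -0.26, 0.01 and -0.31 in LL and -1.02, -1.13 and -1.41 in HL, a change of -1.0 ± 0.10. At4g30690, annotated as a translation initiation factor 3, read -0.04, -0.24 and -0.33 in LL and -1.56, -1.59 and -1.78 in HL, a change of -1.44 ± 0.09. At5g24490, annotated as a ribosomal protein of the 30S subunit, was lower in both lights, with LL at -0.46, -0.38 and -0.45 and HL at -1.54, -1.63 and -1.78. In each of these 3 genes the HL arrays lay more than a 1.4-fold step below the lowest LL array. SECE1, a subunit of the plastid Sec translocase, had a smaller change (-0.80 ± 0.10). RbcX1, a chaperone of Rubisco assembly, read 0.25, 0.52 and 0.11 in LL and -0.53, -0.48 and -0.59 in HL (-0.83 ± 0.11), its lights lying on either side of the earlier level. STY17, a kinase that phosphorylates chloroplast precursor proteins, was low in LL (-0.83, -0.65, -0.71) and lower still in HL (-1.54, -1.41, -1.66).

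In metabolism the clearest HL-side difference was that of MEE51, the beta subunit of the pyrophosphate-dependent phosphofructokinase. It read -0.10, -0.15 and 0.03 in LL and -1.40, -1.33 and -1.47 in HL, a change of -1.32 ± 0.09. GGT1, a gamma-glutamyl transpeptidase of glutathione breakdown, read -0.15, -0.23 and -0.40 in LL and -1.24, -1.65 and -1.28 in HL. NHO1, the glycerol kinase, read -0.08, 0.18 and 0.08 in LL and -0.78, -0.83 and -0.73 in HL. In these 3 enzymes the LL mean at 3.5 hr lay within 0.3 of that at 1 hr, although for GGT1 it lay 0.26 ± 0.11 below. In other enzymes the LL mean lay further away. GolS3, a galactinol synthase, read 1.12, 0.71 and 0.65 in LL and -0.37, -0.29 and -0.25 in HL (-1.13 ± 0.13). VTC4, a phosphatase of ascorbate synthesis, read 0.47, 0.66 and 0.56 in LL and -0.23, -0.30 and -0.25 in HL (-0.82 ± 0.08). CYP709B3, a cytochrome P450, read 0.96, 0.95 and 0.86 in LL and -0.15, -0.29 and -0.63 in HL (-1.28 ± 0.10), and GDPD6, XDH2 and BGLU16 had changes of -0.95, -0.85 and -0.80.

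ATG8F, a ubiquitin-like protein of the autophagosome membrane, was above its earlier level in LL (0.55, 0.58, 0.33) and below it in HL (-0.63, -0.83, -1.06), a change of -1.32 ± 0.09. The defence-related PEN3, an ABC transporter of penetration resistance, had an LL mean within 0.3 of 1 hr (0.13, -0.34, -0.17) and was low in HL (-1.42, -1.39, -1.26). PAD4, a lipase-like regulator of salicylic acid defence, had a smaller difference of the same kind, with LL at 0.33, 0.30 and 0.04 and HL at -0.60, -0.63 and -0.64. CRK41, a cysteine-rich receptor-like kinase, was low in LL (-0.54, -0.31, -0.49) and lower in HL (-1.88, -1.61, -1.15). HIR2, a membrane protein of the hypersensitive reaction, did likewise, from -0.50, -0.80 and -0.77 in LL to -1.95, -1.65 and -1.29 in HL. Of 2 stress proteins, Fes1B, an exchange factor of Hsp70, stood at 1.22, 1.49 and 1.45 in LL and 0.26, 0.21 and 0.05 in HL, whereas the dehydrin LTI30 read 1.65, 0.32 and 0.38 in LL and 0.00, -0.36 and 0.00 in HL. The LTI30 change of -0.90 ± 0.24 was -0.53 without replicate 1.

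Beside At4g30690, the loci without a symbol among the 15 largest differences were At1g33590 and At1g15740, both annotated with leucine-rich repeats, At5g18630, annotated as an alpha/beta-hydrolase, At2g30230, and At4g38550, annotated as a phospholipase-like protein. Their changes were -1.45 ± 0.11, -1.31 ± 0.09, -1.38 ± 0.12, -1.41 ± 0.09 and -1.29 ± 0.13, and these 5 are listed as falls. At1g15740 and At4g38550 lay close to their earlier level in LL, with LL at 3.5 hr minus LL at 1 hr of -0.07 and -0.08, while At2g30230 was above it (0.98) and fell short of it in HL (-0.43). At4g38550 overlaps At4g38552, the non-coding member, whose change was -0.81 ± 0.13, and since the strand of the probes is not given in the sources used here their signals cannot be told apart. At1g62480 (-0.90 ± 0.26) and At3g13980 (-0.90 ± 0.28) had the widest replicates after BHLH100. Both changes were -0.58 without replicate 1, where limma called neither, and At3g13980 was not called without replicate 3 either (-0.94). Apart from those named by size, list or call, genes were picked for a known role or a wide spread after their values had been seen.

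The values next to the limits were close to those of the members. SECE1 and BGLU16, the last genes inside the upper limit, both had -0.801, and PYL7 (-0.798) and DOG1 (-0.795) lay just outside it. At the lower limit BT1 (-1.466) and IAA29 (-1.463) were inside, and At5g62280 (-1.54) was the single locus outside.

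Relative to LL at 1 hr the 80 genes, as placed by the smallest change, reached their difference by different routes. The listed changes compare HL with LL, so they do not settle where LL at 3.5 hr lies against LL at 1 hr. At the next lower power of 10 that LL level would be -1.87 for IAA29, -2.04 for KMD1 and -1.93 for Fes1B. The routes are thus a description of the placed levels. In 31 genes (38.8%) the LL level stayed within 0.3 and the HL level was lower, as in NF-YC1, MEE51, PEN3 and TRXF2. In 25 genes (31.2%) the HL level stayed within 0.3 and the LL level was higher, as in IAA29, KMD1, Fes1B, TRP1 and XTH11. In 16 genes (20%) LL was higher and HL lower, as in ATG8F, TUB5, XTH7 and WAKL6. These 16 include BT1 and BBX31 as placed by the smallest change, which the lists turn into rises. The remaining genes were low in both lights (6 or 7.5%, among them PIF4, CRK41, HIR2 and STY17) or high in both (2 or 2.5%, At1g02300 and At4g16000). The rule favours a high LL and a low HL level at 3.5 hr, so a tilt to both is set by the choice. Of the 241 loci with the same fall that also differed at 1 or 25 hr, 14.5% had the route of IAA29 and 35.7% that of NF-YC1, and of all loci 3.21% and 6.03%. The route of ATG8F held for 29.5% of the 241 and 0.424% of all loci. Low in both lights were 17% of the 241 and 5.21% of all loci, and high in both 3.32% and 5.6%.

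**Figure D3:**
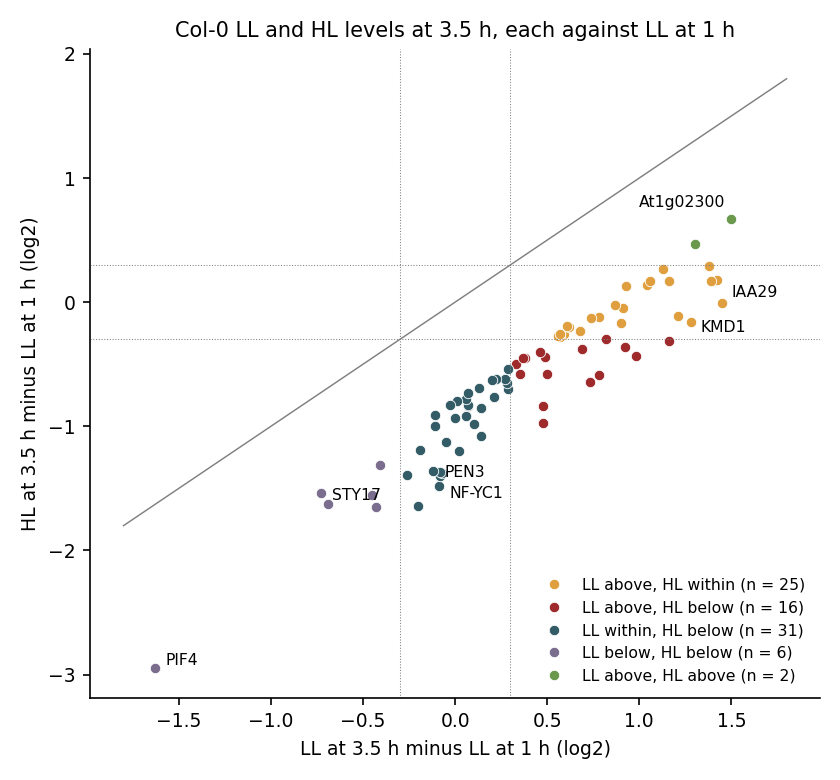
LL at 3.5 hr (x axis) and HL at 3.5 hr (y axis) of the 80 genes in Col-0, each minus LL at 1 hr (log2), with dotted lines at 0.3 either way and the line of equal levels, below which the rule puts all genes. The 31 genes with LL within 0.3 lie in the middle column, the 25 with HL within 0.3 form the band on the right, and PIF4 lies apart at -1.63 and -2.95. All genes are drawn by the smallest change, which the lists turn into rises for BT1 and BBX31.

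As a description of the placed levels, 36 of the 80 were called higher in LL at 3.5 hr than at 1 hr, where 3.77% of all loci were. Called lower were 3 (PIF4, HIR2 and STY17), where 3.64% of all loci were. In HL at 3.5 hr against the same LL group, 43 were called lower (5.63% of all loci), BBX31 among them although the lists make it a rise. The 1 gene called higher (6.81% of all loci) was At1g02300. Its LL arrays stood at 1.28, 1.71 and 1.5 and its HL arrays at 0.90, 0.67 and 0.44.

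Listed and unlisted genes differed in how far their LL level had moved. Of the 33 genes with a change of -1 or less, 24 are in the study's lists and 9 are not: IAA29, KMD1, PIF4, ORA59, At2g20670, PGIP2, Fes1B, GolS3 and At1g74940. In these 9 the LL level at 3.5 hr lay between 0.82 and 1.63 from LL at 1 hr (median 1.39), whereas in the 22 listed falls the median was 0.23 and the highest 0.98. The other direction that the digits allow would put IAA29 at 1.86 and KMD1 at 1.89, and which holds was not tested. At1g61795 (-0.99, or 2.33 at the next power of 10) is the neighbouring locus of GPT2, a glucose 6-phosphate translocator, whose listed change at 3.5 hr is a rise of 3.65 ± 0.36 in these digits.

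The same hour on the days before and after gave LL levels near those of 1 hr. The LL arrays at -23 hr were not used by the rule. In 66 of the 80 genes both the -23 hr and the 25 hr LL mean lay within 0.3 of LL at 1 hr. The share over all loci was not computed, and the placing of LL groups closest to LL at 1 hr favours nearness. Limma called 0 genes for either day (0.284% of all loci at -23 hr and 0.0252% at 25 hr). At -23 hr 15 genes (18.8%, against 7.43% of all loci) had an unadjusted limma p below 0.05, and at 25 hr 11 (13.8%, against 7.56%). The LL arrays at 1 and 25 hr were among those that the rule used, so these shares are a description and not a test. IAA29 read 0.05, 0.09 and -0.03 at -23 hr and 0.04, 0.03 and 0.06 at 25 hr in LL, so its arrays on all 3 mornings overlapped. The largest mean difference was that of AR781 at -23 hr (0.19, 1.07 and 0.70), 0.65 ± 0.16 above LL at 1 hr with an adjusted p of 0.082.

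Ga-0 and Ts-1 at 1 hr gave the arrays in which the genes could be tested apart from the rule. In Ga-0 the median HL minus LL change was -0.11, with 64 of 80 genes (80%) below 0, where 50.7% of all loci were. In Ts-1 the median was -0.14 and 54 genes (67.5%) were below 0, where 51.6% of all loci were. All HL arrays lay below all LL arrays for 22 genes in Ga-0 (27.5%, against 8.94% of all loci) and 24 in Ts-1 (30%, against 9.77%). In 15 genes (18.8%, against 2.86%) they did so in both accessions, among them ATG8F, XTH11, ORA59, CYP709B3, STY17 and At1g33590. For Ga-0 an unadjusted p below 0.05 was reached by 29 genes (36.2%, against 16%) and for Ts-1 by 34 (42.5%, against 17.1%).

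Few of these changes passed the limits of a call. In Ga-0 limma called 3 genes lower, where 0.974% of all loci were, and 0 higher, where 1.25% were. In Ts-1 it called 4 lower, where 0.938% were, and 2 higher, where 1.47% were. ATG8F fell in both accessions. In Ga-0 its HL arrays read -0.29, -0.44 and -0.47 and its LL arrays 0.35, 0.12 and 0.31, and in Ts-1 its HL arrays read -0.21, -0.13 and -0.07 and its LL arrays 0.48, 0.47 and 0.42. The lights did not overlap in either accession, and the changes were -0.66 ± 0.09 (limma adjusted p 1.2e-05) and -0.59 ± 0.09 (5.2e-05). ATG8F kept both calls without any replicate number, and its change in Col-0 at 1 hr was -0.15 ± 0.09.

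At3g05160 fell in Ga-0, from 0.73, 0.56 and 0.86 in LL to 0.29, -0.05 and 0.43 in HL, by 0.49 ± 0.12 (limma adjusted p 0.011). At5g03130 fell there by 0.58 ± 0.16 (0.028), with HL arrays at -0.42, -0.23 and -0.65 and LL arrays at 0.38, 0.32 and -0.26, which overlapped. In Ts-1, At1g15740 fell from 0.74, 0.35 and 0.46 to -0.10, 0.05 and 0.02, by 0.53 ± 0.09 (7.8e-05). At5g21940 fell by 0.57 ± 0.12 (0.0018) and At5g60680 by 0.52 ± 0.11 (0.0026), both without overlap of the arrays. CRK41 rose in Ts-1 from -1.62, -1.67 and -1.66 to -1.32, -0.98 and -0.96, by 0.57 ± 0.15 (0.015). HIR2 rose from -0.31, -0.51 and 0.15 to 0.24, 0.36 and 0.42, by 0.56 ± 0.17 (0.045). Each of these calls except those of ATG8F was lost without some replicate number. Without replicate 1 this was so for At3g05160 (-0.52), At5g03130 (-0.47), At1g15740 (-0.37) and HIR2 (0.57), without replicate 2 for At3g05160 (-0.44), At5g03130 (-0.60), CRK41 (0.50) and HIR2 (0.41), and without replicate 3 for At3g05160 (-0.52), CRK41 (0.50), At5g21940 (-0.47) and At5g60680 (-0.33).

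**Figure D4:**
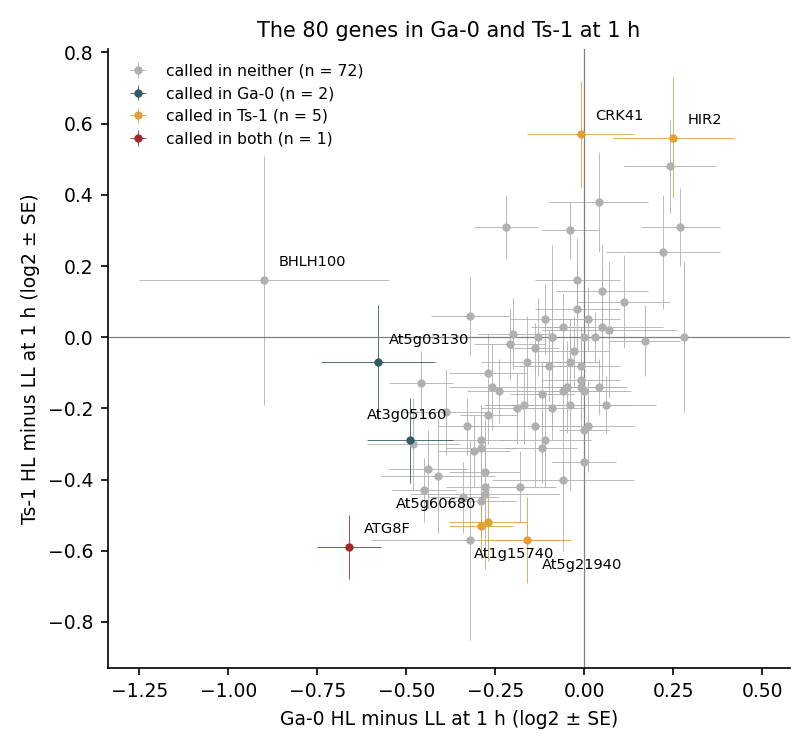
HL minus LL change at 1 hr (log2 ± SE, 3 arrays per group) of the 80 genes in Ga-0 (x axis) and Ts-1 (y axis), coloured by limma call. ATG8F was called in both (-0.66 and -0.59), 2 genes in Ga-0 alone, 5 in Ts-1 alone and 72 in neither.

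The responses of the 2 accessions were not shown to differ in any of the 80. Limma called 0 genes for the Ga-0 minus Ts-1 response, where 0.298% of all loci were called, and 11 had an unadjusted p below 0.05 (13.8%, against 8.49%). The smallest adjusted p was 0.053, of At1g78830, with a change of -0.22 ± 0.09 in Ga-0 and 0.31 ± 0.09 in Ts-1. For CRK41 the difference was -0.58 ± 0.21 (adjusted p 0.38), and for BHLH100 -1.07 ± 0.50 (0.56).

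In LL the accessions differed more. Between Ga-0 LL and Ts-1 LL limma called 15 of the 80 genes, where 5.44% of all loci were called. In Ga-0, 4 were higher (2.77% of all loci) and 11 lower (2.67%). At5g03350, annotated as a legume lectin, was higher in Ga-0 (0.49, 1.99 and 0.65, against -0.45, -0.39 and -0.48 in Ts-1) by 1.48 ± 0.21 (limma adjusted p 2.4e-06). At1g77960 was higher by 0.82 ± 0.10 (1.2e-07). CYP709B3 was lower in Ga-0 (-0.66 ± 0.10, adjusted p 5.8e-06), with arrays at -0.58, -0.24 and -0.53 against 0.30, 0.16 and 0.19, and so was SECE1 (-0.57 ± 0.10, adjusted p 9.3e-05). LTI30 (-0.70, adjusted p 0.041) and XDH2 (-0.50, adjusted p 0.031) were lower too. CRK41 (3.14) and At5g44568 (-2.21) lie beyond the range that can be placed between these accessions and would be -0.19 and 1.11 when placed closest to each other, so their direction is not settled. Match of the probes to the sequences of Ga-0 and Ts-1 was not tested.

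Of 36 gene lists of families and pathways, 8 hold members of the 80. Of all loci 3.77% were called lower and 3.94% higher in HL at 3.5 hr, with a median change of -0.01, against which the counts below are to be read. They include the members, which were chosen to be lower. The members also lie within 0.3 at 1 and 25 hr by the rule, so values of other genes at those times are given as a description and not as a contrast with them.

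The list of Aux/IAA, GH3 and auxin transport genes holds IAA29 and IAA14. In it 15 of 76 measured genes were called lower (19.7%) and 0 higher, with a median of -0.16. Of those 15, 2 were also lower at 1 hr and 4 at 25 hr, such as the auxin carriers PIN4 (-1.30 at 3.5 hr, -1.04 at 25 hr) and AUX1 (-0.75, -1.07). Of 33 XTH genes 8 were lower (24.2%) and 1 higher (3.03%), with a median of -0.07. XTH6 had -1.24 at 3.5 hr and -0.69 at 25 hr, XTH9 had -1.07 and -0.31, and XTH7 -0.92 and 0.00. TCH4, a touch-induced XTH, had -1.02 at 3.5 hr and -1.05 at 1 hr but 1.59 at 25 hr, close to the limit of what can be placed. Of 68 PIF, BBX and photoreceptor genes 14 were lower (20.6%) and 8 higher (11.8%), or 13 and 9 with the powers of 10 of the lists, which turn BBX31, and the median was -0.03. COL5 (-1.22, and -0.66 at 25 hr) and PKS4 (-1.05, and -0.70 at 25 hr) were the listed falls with the largest size among them.

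Of 60 sugar-starvation genes 8 were lower (13.3%) and 9 higher (15%), with a median of -0.09. At3g59940, another kelch-repeat F-box gene, had the same -1.44 at 3.5 hr as KMD1, with -0.81 at 1 hr and -0.54 at 25 hr. Of 255 peptide hormone and receptor kinase genes, which hold CRK41 and WAKL6, 16 were lower (6.27%) and 5 higher (1.96%), with a median of -0.05. Among them were CRK22 at -1.11 and FLS2, the flagellin receptor, at -1.08. Of 234 cytochrome P450 genes 16 were lower (6.84%) and 13 higher (5.56%), with a median of -0.01, and BAS1, which inactivates brassinosteroids, was at -1.14 ± 0.11. Of 46 genes of tubulins, kinesins and microtubule proteins TUB5 and ATMAP65-6 (-0.54) were lower (4.35%) and 1 was higher (2.17%). In the list of 22 bHLH factors by symbol, BHLH100 was not called, PRE1, an elongation-promoting factor, was lower (-0.87, and -0.78 at 1 hr) and 2 were higher (9.09%). BAS1, TCH4, ATMAP65-6 and PRE1 have no listed change in the study at 3.5 hr, so their direction rests on the smallest change alone. The SAUR list, auxin-induced growth genes, holds none of the 80. In it 16 of 80 measured genes were called lower (20%) and 2 higher (2.5%), with a median of -0.11, and 10 of the 16 were called lower at 25 hr as well. SAUR was picked from the lists without members. Their share called lower ran from 0%, as for cytosolic ribosomal protein genes, to 26.9%, for brassinosteroid genes.

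The 80 genes lie on all 5 chromosomes. Chromosome 1 holds 25 (31.2%, against 25.9% of all loci) and chromosome 2 holds 8 (10%, against 15.8%). Chromosome 3 holds 16 (20%, against 19.9%), chromosome 4 holds 17 (21.2%, against 15.1%) and chromosome 5 holds 14 (17.5%, against 22.9%). XTH11 and NF-YC1 are neighbouring loci, though as placed XTH11 differed on the LL side and NF-YC1 on the HL side. KMD1 and NHO1 lie 2 loci apart and GolS3 and At1g09390 4 loci apart. Of the 80, 16 overlap another measured locus, and their signals cannot be separated without the strand of the probes. For neighbours and overlaps the share over all loci was not computed, so whether these counts are unusual is not known.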

How the data were processed

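Rosette RNA of 33 samples in 11 groups was hybridized to Affymetrix AraGene arrays, and per the methods the authors normalized the signals by RMA at the gene level and tested them with limma. The deposited table holds the digits of linear RMA signal intensity values without the decimal separator for all but 1 of 918258 values, so its values are signals known up to a power of 10. The planned tests assumed log2 values. Digits were read as numbers from 1 to 10 and their log2 taken, replicates were closed up by whole powers of 10, LL groups were placed closest to Col-0 LL at 1 hr and HL groups closest to their own LL group. Of 2051 listed fold-changes, 2049 were found in the digits within 0.01 on the log2 scale. They were used in an alternative for the power of 10 alone.

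Log2 values of all 27826 loci were fitted in limma 3.58.1 (R 4.3.3) as 11 group means, with eBayes without trend (22 residual and 8.37 prior degrees of freedom). Within each contrast the p-values of all loci were adjusted together (Benjamini-Hochberg), and a call needed an adjusted p below 0.05 and a change beyond 1.4-fold. Errors are SEs of that fit. Placing used Python 3.11.15 with pandas 2.3.3 and numpy 2.4.6, and both steps were tested on simulated data.

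Genes were named when among the 15 lowest at 3.5 hr, in 1 of 36 lists by symbol, called in Ga-0 or Ts-1, or next to a limit, and otherwise as stated. The genes and lists were chosen with earlier results of these data known. Gene names come from the RefSeq table of TAIR10.1, which holds 27241 of the loci. Promoter and protein sequences were not used here. Alternatives changed the placing, the centring, the arrays in the fit, the moderation, the limits, a replicate block and each replicate number left out.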

Additional observations from a re-analysis of the deposited data

How the results depend on the processing

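The number of genes meeting the rule moved with its limits. It was 35 with a band of 0.2 and 122 with 0.4 in place of 0.3, and 135 with an upper limit of -0.7 and 49 with -0.9. Leaving out replicate 1, 2 or 3 gave 78 to 85 genes, of which 49 to 54 were shared with the 80. The median 3.5 hr change was taken over the same 80 genes with other placings, with centring, without each replicate number, and without BT1 and BBX31. It stayed between -1.01 and -0.92, which is no support, as the rule chose these genes by that change. The genes called lower at 3.5 hr, a count likewise tied to the rule, numbered 77 to 79 without a replicate number and 52 under treat at 1.4-fold. Those called lower in Ga-0 numbered 1 when the fit held the 2 compared groups alone, 12 without the fold limit, 0 under treat and 2 to 4 without a replicate number. Those called higher in Ga-0 numbered 0 to 1 without a replicate number. In Ts-1, 13 were lower and 5 higher without the fold limit, 0 and 0 under treat, 3 to 5 and 0 to 2 without a replicate number, and 1 was higher with robust moderation. The Ga-0 and Ts-1 responses differed for 1 gene with robust moderation and for 1 with HL placed closest to Col-0 LL at 1 hr, a placing added after the values were seen. Between Ga-0 LL and Ts-1 LL, 33 were called without the fold limit and 3 under treat. Over all loci, the calls for Col-0 at 3.5 hr, Ga-0 and Ts-1 went from 2144, 620 and 671 to 5998, 1550 and 1790 without the fold limit and to 540, 78 and 104 under treat.

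With the powers of 10 of the lists BT1 became 1.86 and BBX31 1.95, and with HL closest to Col-0 LL at 1 hr PIF4 became 2.0. With a replicate block 79 genes were called lower at 3.5 hr, 3 lower in Ga-0 and 4 lower and 2 higher in Ts-1, the counts without it. Deviations from the group means of the 15 pairs of HL and LL arrays with the same number correlated by -0.104 to 0.251. In 7 of the 15 the correlation was over 0.1, not in all, so the numbers were not taken as pairs. In 12 of the 15 the own number correlated best, a hint from the data towards shared replicates. The share of promoters with a motif was not run, as no promoter sequence was used. Changes beyond 3.16-fold cannot be placed, and the levels of different genes cannot be compared.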
